A study of Mus musculus with 2 samples.

Results

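C/D box small nucleolar RNAs (snoRNAs) were examined in total RNA of MEL cells, a mouse erythroleukemia line derived from immature red cell precursors. The genes were those whose annotated symbol is Snord followed by a number. By that rule 97 of the 43346 Ensembl gene rows in each deposited gene table were Snord genes, out of 99 in the GENCODE M21 annotation. The other 2, Snord43 and a second entry for Snord80, were not analysed here. All cells had been treated with 2% DMSO for 5 days, an exposure under which MEL cells start to make hemoglobin. The series held 2 libraries of this 1 group, replicate 2 and replicate 1, and no untreated cells. The labels call them biological replicates but give the same biosample for both, so every p-value below measures only the difference between these libraries, which may be technical.

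A C/D box snoRNA carries a C box near its 5′ end and a D box near its 3′ end. The boxes are bound by the core proteins Snu13, Nop56, Nop58 and the methyltransferase Fbl (fibrillarin). Most such RNAs base-pair with ribosomal RNA (rRNA) or with the spliceosomal RNA U6 and direct 2′-O-methylation of the paired nucleotide. A few, among them U3, U8 and U22, take part instead in cutting the rRNA precursor. In mammals most C/D snoRNAs are released from introns of other genes, very often genes of ribosomal proteins and translation factors. In the bulk RNA measured here, fewer cells with an RNA and less RNA per cell cannot be told apart.

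Of the 97 Snord genes, 6 had any count in either library and 91 had a count of 0 in both. The 6 were Snord17, Snord15b, Snord15a and Snord22, each with 5073 counts or more per library, Snord118 (U8) with more than 100, and Snord8 with 3 or fewer. The sequences of these 6 are shown first because they hold every count of the family. Snord67, a U6 guide with no count that is barely longer than Snord8, and Snord14a (U14), a short family member whose host gene is abundant, follow for contrast. All are GENCODE M21 transcript sequences written 5′ to 3′ as DNA letters, and the capitals mark TGATGA, the letters of the C box, and CTGA, the letters of the D box, where it falls within the last 20 bases.
Snord17: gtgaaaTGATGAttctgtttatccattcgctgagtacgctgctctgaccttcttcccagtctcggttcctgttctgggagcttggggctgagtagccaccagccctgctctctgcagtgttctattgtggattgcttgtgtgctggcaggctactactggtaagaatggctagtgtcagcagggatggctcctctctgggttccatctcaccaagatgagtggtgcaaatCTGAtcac
Snord15b: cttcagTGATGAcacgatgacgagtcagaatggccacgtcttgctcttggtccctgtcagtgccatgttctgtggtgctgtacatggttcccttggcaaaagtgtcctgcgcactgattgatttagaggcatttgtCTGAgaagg
Snord15a: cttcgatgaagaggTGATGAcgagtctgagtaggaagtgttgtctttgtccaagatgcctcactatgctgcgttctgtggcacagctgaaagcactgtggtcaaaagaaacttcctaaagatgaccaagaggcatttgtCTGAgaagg
Snord22: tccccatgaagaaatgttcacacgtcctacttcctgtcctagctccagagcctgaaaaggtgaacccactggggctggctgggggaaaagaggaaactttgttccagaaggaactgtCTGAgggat
Snord118: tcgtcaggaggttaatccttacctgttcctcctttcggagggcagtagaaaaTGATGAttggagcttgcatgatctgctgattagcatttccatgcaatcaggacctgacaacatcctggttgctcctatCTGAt
Snord8: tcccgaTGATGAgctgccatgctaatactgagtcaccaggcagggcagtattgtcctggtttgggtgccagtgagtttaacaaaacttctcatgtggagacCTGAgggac
Snord67: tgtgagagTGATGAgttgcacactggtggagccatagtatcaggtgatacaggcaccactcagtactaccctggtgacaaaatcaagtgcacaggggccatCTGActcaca
Snord14a: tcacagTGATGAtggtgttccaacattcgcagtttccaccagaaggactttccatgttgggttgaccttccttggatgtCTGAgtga

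On mm10 coordinates, Snord17 (ENSMUSG00000077714, 238 nt) lay at chr2:144265979-144266216 on the minus strand. Snord15b (ENSMUSG00000064966, 145 nt) lay at chr7:99479563-99479707 and Snord15a (ENSMUSG00000065822, 148 nt) at chr7:99482785-99482932, both on the minus strand in Rps3, and their sequences were 66.0% identical when aligned. Snord22 (ENSMUSG00000065087, 126 nt) lay at chr19:8725866-8725991 on the plus strand. Snord118 (ENSMUSG00000064899, 135 nt) lay at chr11:69073427-69073561 on the plus strand, and Snord8 (ENSMUSG00000093044, 110 nt) at chr14:52209785-52209894 on the minus strand.

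The box letters were present in most of the family. TGATGA occurred in 73 of 97 Snord genes (75.3%) on the RNA strand and in 1 on the opposite strand. CTGA within the last 20 bases occurred in 95 (97.9%), and both occurred in 71 (73.2%). Among 4395 other genes of the same length range that are neither snoRNA nor scaRNA genes, TGATGA occurred in 3.34%, terminal CTGA in 7.42% and both in 0.364%. None of 41 Snora genes, which encode the H/ACA box snoRNAs that guide pseudouridylation, held TGATGA, and 5 of them (12.2%) held terminal CTGA. Of the 6 Snord genes with a count, 5 held TGATGA and all 6 held terminal CTGA. Snord22 held no TGATGA on either strand. In Snord17, Snord15b and Snord8 the letters began at base 7, in Snord15a at base 15, and in Snord118 at base 53.

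Levels are given as CPM, the authors' estimated count per 1000000 of the library's total of 90856320 estimated counts in replicate 2 and 65109488 in replicate 1. Intervals are exact 95% intervals for the count and cover counting error only. Snord17, known in human cells as a guide of large-subunit rRNA methylation, had 60315 counts in replicate 2 and 29550 in replicate 1. That is 664 CPM (659 to 669) in replicate 2 and 454 CPM (449 to 459) in replicate 1, with a mean of 559 ± 148 CPM (SD, n = 2). It was the Snord gene with the most counts in both libraries and held 69.5% of all Snord counts in replicate 2 and 45.6% in replicate 1.

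Snord15b, which like its relative Snord15a guides large-subunit rRNA methylation, had 13585 counts in replicate 2 and 20293 in replicate 1. Its level was 150 CPM (147 to 152) in replicate 2 and 312 CPM (307 to 316) in replicate 1, or 231 ± 114.7 CPM (SD, n = 2). Here the shallower library, replicate 1, had the higher count as well as the higher CPM. Snord15a had 5073 counts, 55.8 CPM, in replicate 2 and 6656 counts, 102 CPM, in replicate 1, or 79.0 ± 32.8 CPM (SD, n = 2). The pair kept its order in both libraries. The ratio of Snord15b to Snord15a counts was 2.68 in replicate 2 and 3.05 in replicate 1, a mean of 2.86 ± 0.262 (SD, n = 2). The authors' posterior standard deviation of the Snord15b count was 1.65 counts in replicate 2 and 2.18 in replicate 1, and that of Snord15a was 0 in both.

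Snord22 (U22), known from frog oocytes for its part in the maturation of small-subunit rRNA, had 7554 counts in replicate 2 and 8204 in replicate 1. Its level was 83.1 CPM (81.3 to 85.0) in replicate 2 and 126 CPM (123 to 129) in replicate 1, or 105 ± 30.3 CPM (SD, n = 2). Snord118, the U8 RNA needed in frog oocytes for maturation of the large-subunit rRNAs, had 286 counts, 3.15 CPM (2.79 to 3.53), in replicate 2 and 123 counts, 1.89 CPM (1.57 to 2.25), in replicate 1. Its level was thus far under those of the 4 leading genes in both libraries. Snord8, a guide for U6, had 3 counts in replicate 2 and 1 count in replicate 1. The limit that a count of 0 allows is 3 counts, or 0.0330 CPM in replicate 2 and 0.0461 CPM in replicate 1, so Snord8 lay at or under that limit in both.

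**Figure D1:**
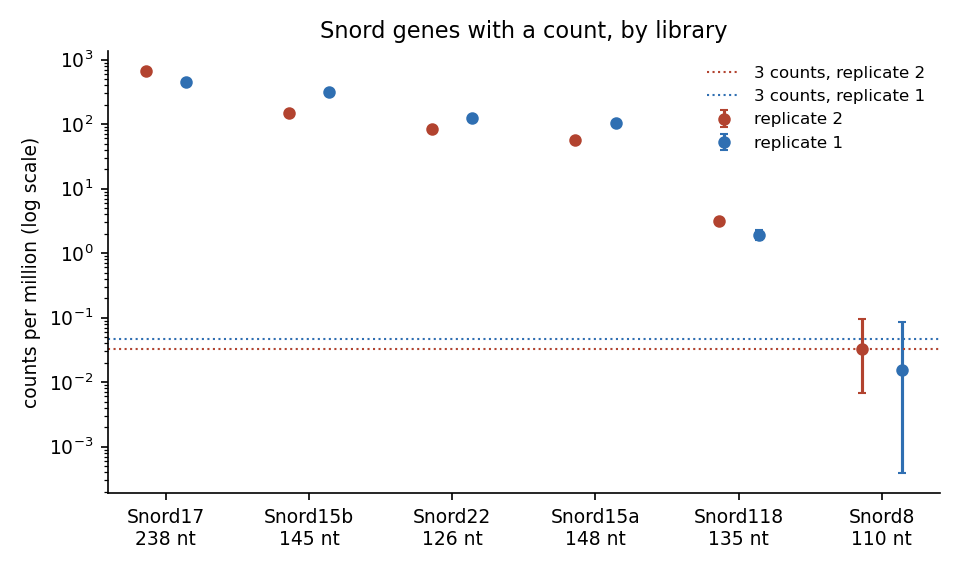
CPM on a log axis for the 6 Snord genes with a count, replicate 2 left of replicate 1 for each gene. Bars are exact 95% counting intervals, mostly smaller than the points, and dotted lines mark 3 counts in each library. Snord17 is above 450 CPM in both libraries, Snord118 is at 3.15 CPM in replicate 2 and 1.89 CPM in replicate 1, and Snord8 is at or below the dotted line of its library.

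Counts divided by annotated length gave another order of the leading genes in 1 library. Snord17 had 279 CPM per 100 nt in replicate 2 and 191 in replicate 1, and Snord15b had 103 in replicate 2 and 215 in replicate 1. Snord17 thus led per length in replicate 2 and Snord15b in replicate 1, and their means of 235 ± 62.4 and 159 ± 79.1 CPM per 100 nt (SD, n = 2) differed by less than the spread between the libraries. Snord22 averaged 83.0 ± 24.1, Snord15a 53.4 ± 22.2 and Snord118 1.87 ± 0.659 CPM per 100 nt (SD, n = 2). Snord15a lay below Snord22 in both libraries, and the step from Snord15a down to Snord118 was larger than the spread in either gene.

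Together the Snord genes held 0.0956% of all counts in replicate 2 and 0.0996% in replicate 1, a mean of 0.0976 ± 0.00284% (SD, n = 2). The 4 leading genes held 99.7 ± 0.1001% of the Snord counts (SD, n = 2). The 5 genes with 10 or more counts in both libraries are 5 of 97, where 33.1% of all Ensembl rows reached that number. The 41 Snora genes held 0.931 ± 0.00476% of all counts (SD, n = 2), and 32 of them had 10 or more in both libraries. Most Snora counts lay in Snora73a (297699 in replicate 2, 192933 in replicate 1) and Snora73b (485883 in replicate 2, 354103 in replicate 1).

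The deposited TPM, the length-scaled unit, divides each count by an effective length, the number of positions at which a fragment could start. For rows over 2000 nt the effective length was a median of 161 nt below the deposited length in replicate 2 and 154 nt below it in replicate 1. All Snord genes except Snord17 are shorter than that. The effective length was 0 in both libraries for 93 of the 97 and in replicate 2 alone for Snord118. A gene with an effective length of 0 is listed at 0 TPM whatever its count. That applied to Snord22 in both libraries, although it had 7554 counts in replicate 2 and 8204 in replicate 1. Snord118 had an effective length of 0 and 0 TPM in replicate 2, where its count was the higher, and an effective length of 1.28 nt and 398 TPM in replicate 1. The longest Ensembl row with an effective length of 0 had 136 nt in replicate 2 and 132 nt in replicate 1, and the 135 nt of Snord118 fall between these.

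Where the effective length was above 0 it was still small for the Snord15 genes. It was 1.91 nt in replicate 2 and 3.18 nt in replicate 1 for Snord15b, and 2.45 nt in replicate 2 and 4.15 nt in replicate 1 for Snord15a. For Snord17 it was 77.4 nt in replicate 2 and 84.1 nt in replicate 1. Snord15b therefore had 17797 TPM in replicate 2 and 26456 TPM in replicate 1, while Snord17 had 1946 TPM in replicate 2 and 1458 TPM in replicate 1. In TPM, Snord15b was 9.14 times Snord17 in replicate 2 and 18.1 times in replicate 1. In counts, Snord15b was 0.225 times Snord17 in replicate 2 and 0.687 times in replicate 1. The order of these genes thus turned round with the unit in both libraries. The share of the family also depended on it: 2.49% of all TPM in replicate 2 and 3.50% in replicate 1, against less than 0.1% of all counts in each.

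The annotated lengths ran from 64 to 238 nt with a median of 84 nt. All 5 genes of 120 nt or more had 10 or more counts in both libraries. The shortest Ensembl row of any kind with a count had 108 nt. Of the 5 Snord genes from there to under 120 nt, Snord8 had the few counts given above, and Snord23 (109 nt), Snord89 (110 nt), Snord90 (111 nt) and Snord67 (111 nt) had none. The other 87 Snord genes were shorter than 108 nt and had 0 counts. Over the 97 genes, Spearman's rho of length with mean CPM was 0.416, with most genes tied at 0, and over the 6 genes with a count it was 0.714. These are descriptions of genes measured in the same libraries.

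The bound of 108 nt was taken from all Ensembl rows, not from the Snord genes. There were 3266 Ensembl rows under 108 nt. None of them has a count by definition, since the bound is the length of the shortest row with one. The shortest row with a count was Gm26377, annotated as a miRNA of 108 nt, with 10.3 counts in replicate 2 and 1.12 in replicate 1. Of 789 rows of 108 nt to under 120 nt, 8 had a count (1.01%). Of 1412 rows of 120 to under 150 nt, 145 had a count (10.3%) and 7.58% had 10 or more in both libraries, whereas all 4 Snord genes of that length did. Among Snora genes of 120 to under 150 nt, 30 of 35 had a count (85.7%). The shortest Snora gene had 121 nt and the median was 133 nt. A count of 0 for a Snord gene under 108 nt therefore cannot be told apart from an RNA that these tables do not count, and no absence is read from it. None is read from the zeros of Snord23, Snord89, Snord90 and Snord67 either, since 1.01% of rows of their length class had a count.

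**Figure D2:**
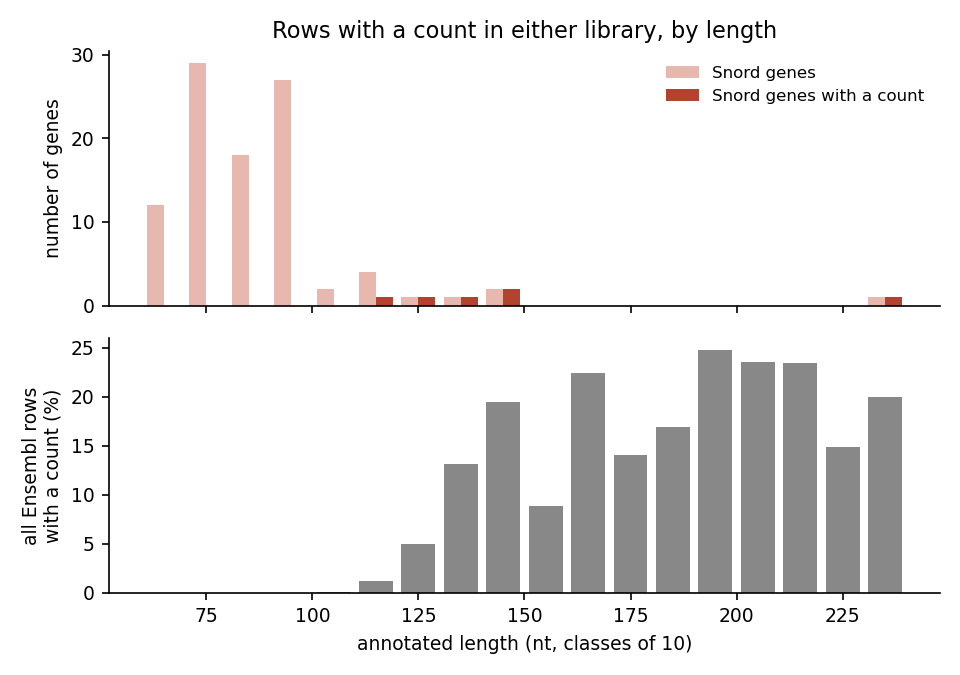
Rows with a count in either library by annotated length, in classes of 10 nt from 60 to 239 nt. The upper panel gives the number of Snord genes (light bars) and of those with a count (dark bars), and the lower panel the percent of all Ensembl rows of that length with a count. Most Snord genes lie in classes where 0% of rows have a count, and the first class with more than 1% is that of 110 to 119 nt.

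**Figure D3:**
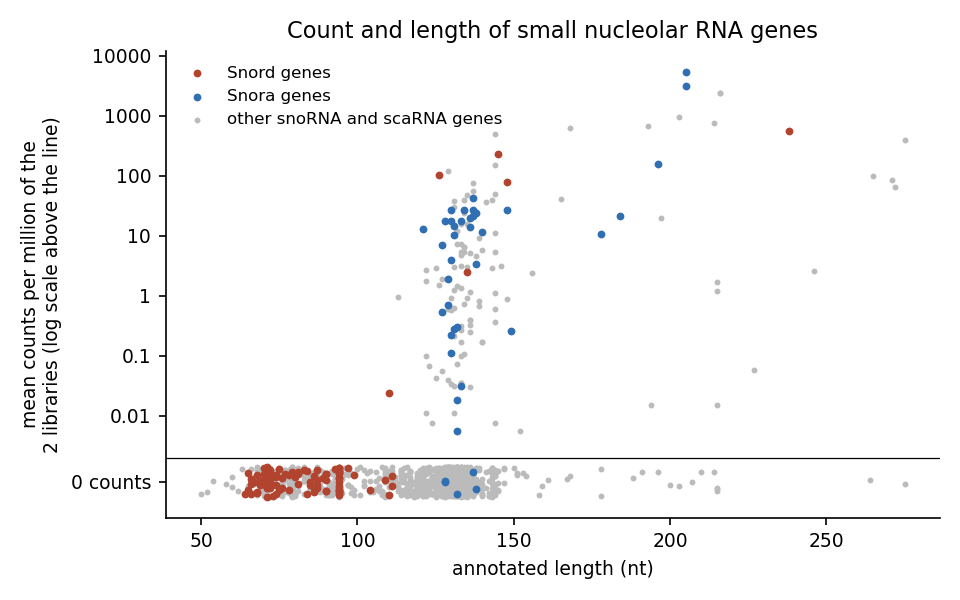
Mean CPM of the 2 libraries against annotated length for Snord genes (red), Snora genes (blue) and all other genes annotated as snoRNA or scaRNA (grey), with genes at 0 counts spread out below the line. The Snord genes crowd between 64 and 111 nt at 0 counts, while 36 of 41 Snora genes, none shorter than 121 nt, have a count.

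A list of 11 rRNA processing and related large-subunit guide RNAs had 10 members in the tables. Of these, Snord17, Snord15a, Snord15b, Snord22 and Snord118 had counts, and Snord13, Snord14a, Snord14c, Snord14d and Snord14e did not. Snord13 (U13), which guides acetylation of small-subunit rRNA, has 104 nt, and Snord14a (U14), needed in yeast for small-subunit rRNA maturation, has 87 nt. Both fall under the length at which any row had a count. Of the U6 guides, Snord7, Snord8 and Snord67 were in the tables under Snord symbols, and of these Snord8 alone had counts. Snord94, another U6 guide, is in the tables as Gm22486, with 3433 counts in replicate 2 and 4689 in replicate 1. None of the 4 Rpl13a intron genes (Snord32a, Snord33, Snord34 and Snord35a, 70 to 90 nt) and none of the 3 Gas5 genes in the tables (Snord47, Snord78 and Snord80, 66 to 81 nt) had a count.

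The Snord genes of the imprinted Snrpn region, known for brain expression, were all at 0 counts. They were 17 genes of the Snord116 family with 94 nt each, Snord64 with 67 nt and Snord107 with 70 nt. The 17 Snord116 rows held 4 distinct sequences, and the 97 Snord genes 84. Snhg14, the host of the Snord116 genes, had 0.88 TPM in replicate 2 and 0.58 TPM in replicate 1. Gm38393, the host of Snord64 and Snord107, had 2 counts in replicate 2 and 0 in replicate 1, and Snrpn itself had 0 counts in both. Of 5 neuron markers Tubb3 alone reached 1 TPM in both libraries, at 1.86 TPM in replicate 2 and 2.00 TPM in replicate 1. The 5 summed to 2.30 TPM in replicate 2 and 2.39 TPM in replicate 1, and Snap25 and Rbfox3 had 0 TPM in both libraries. The imprinted genes are all shorter than 108 nt, so their zeros carry the limit given above.

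Most Snord genes had a host gene that was counted. Of the 97, 94 lay inside a gene on the same strand, and 54 of these lay wholly in an intron while 40 overlapped an annotated exon. The hosts were 54 different genes, 39 of them protein-coding, and 14 were ribosomal protein genes that held 21 Snord genes. The 53 hosts in the tables had median levels of 22.7 (replicate 2) and 28.0 TPM (replicate 1), beside 1.93 (replicate 2) and 2.18 TPM (replicate 1) for protein-coding rows above 0. A host of 1 TPM or more in both libraries held 67 of the 89 Snord genes at 0 counts that have a host in the tables.

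For 25 Snord genes at 0 counts the host had 100 TPM or more in both libraries, in 16 different hosts. The examples here were picked after the values were seen. Rps12, a small-subunit ribosomal protein gene with Snord100 inside it, had 753 TPM in replicate 2 and 791 TPM in replicate 1. Rack1, a ribosome-bound scaffold protein gene that holds Snord95 and Snord96a, had 591 TPM in replicate 2 and 651 TPM in replicate 1. Hspa8, the constitutive heat shock protein gene that holds Snord14c, Snord14d and Snord14e, had 206 TPM in replicate 2 and 497 TPM in replicate 1. Among hosts named by list, Rpl13a had 243 TPM in replicate 2 and 267 TPM in replicate 1, and Gas5, a non-coding snoRNA host, had 39.6 TPM in replicate 2 and 58.8 TPM in replicate 1. Across 93 Snord genes, Spearman's rho of mean CPM with mean host TPM was 0.0544, a description with 89 genes tied at 0.

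**Figure D4:**
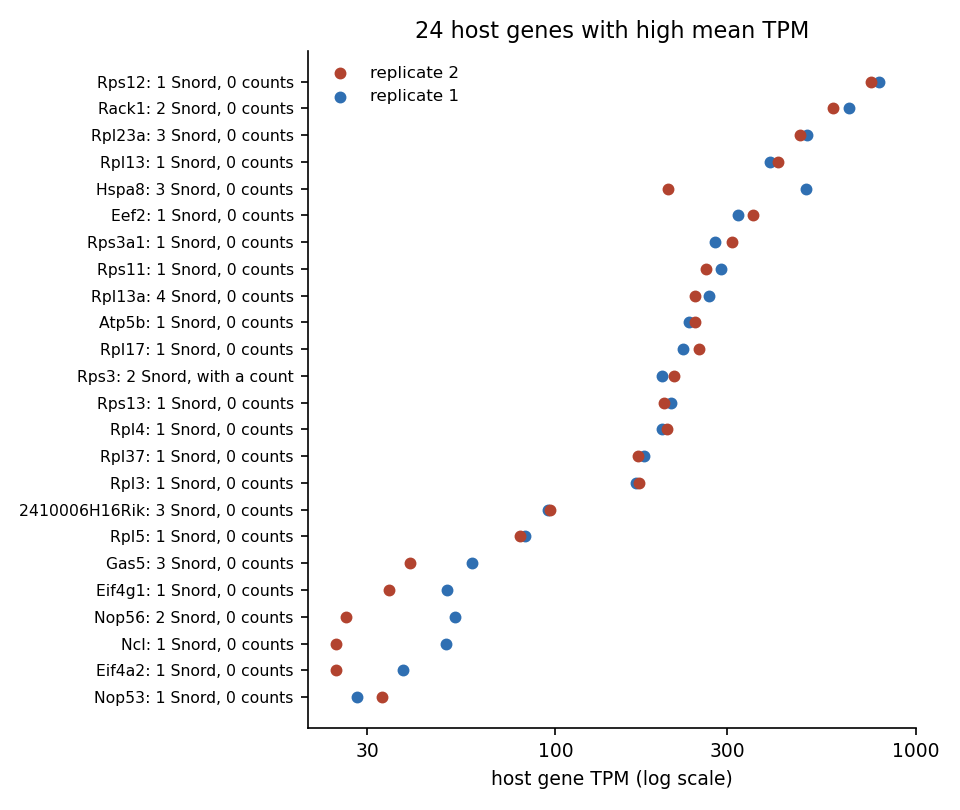
TPM on a log axis of 24 host genes with high mean TPM, replicate 2 in red and replicate 1 in blue, with the number of Snord genes inside each and whether any has a count. Rps3 is the host with counted Snord genes; the Snord genes of the other hosts drawn, among them Rps12 at 753 TPM in replicate 2 and 791 TPM in replicate 1, have 0 counts.

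The hosts of the counted genes spanned a wide range. Snx5, a sorting nexin gene whose intron holds Snord17, had 9.30 TPM in replicate 2 and 11.9 TPM in replicate 1. Snx5 as a whole had 90.0 CPM in replicate 2 and 94.3 CPM in replicate 1, so the count of Snord17 was 738% of its host's count in replicate 2 and 481% in replicate 1. Rps3, a small-subunit ribosomal protein gene, had 214 TPM in replicate 2 and 197 TPM in replicate 1. The Snord15b count was 12.3% of the Rps3 count in replicate 2 and 30.4% in replicate 1, and the Snord15a count 4.60% in replicate 2 and 9.98% in replicate 1. Chd8, a chromatin remodeller gene that holds Snord8, had 6.17 TPM in replicate 2 and 7.39 TPM in replicate 1. Snord118 had no host on its strand. Snord22 lies in Snhg1, a non-coding snoRNA host whose M21 identifier matched no row, so its level was not analysed here.

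Snord17, Snord15a and Snord8 lay wholly in introns, and Snord118 lay outside genes on its strand. Snord15b lay within an exon of Rps3-204, a retained-intron transcript of Rps3 with 2566 counts and 0.99% of the gene's TPM in replicate 2 and 2742 counts and 1.90% in replicate 1. Snord22 overlapped exons of several Snhg1 transcripts. Reads of such transcripts and of the snoRNA can share sequence, and how the authors' estimates divided them was not tested.

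The libraries were compared gene by gene with a binomial test, exact and two-sided, on rounded counts scaled by TMM. The log2 ratio is replicate 2 over replicate 1, with an exact 95% interval, and p-values were adjusted by the Benjamini-Hochberg method over the 15272 rows that reached 10 counts in either library. This test knows only counting error, and at this depth 62% of all rows tested had an adjusted p under 0.05. A row was called different if it also differed by 2-fold or more, which 6.5% of rows did in either direction and 4.08% did with the lower value in replicate 2. Of the 5 Snord genes tested, 1 was called lower in replicate 2 and none higher, and all 5 had an adjusted p under 0.05. With 5 genes tested, nothing on the family is read from these shares.

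Snord15b was the gene called, with a log2 ratio of -1.03 (-1.06 to -0.997), an interval that reaches just inside 2-fold. Snord15a had a log2 ratio of -0.84 (-0.89 to -0.79, adjusted p = 6.1e-216) and Snord22 one of -0.57 (-0.61 to -0.52, adjusted p = 2.2e-133). These 3 were lower in replicate 2. Snord17 had a log2 ratio of 0.58 (0.56 to 0.60) and Snord118 one of 0.76 (0.46 to 1.08, adjusted p = 1.4e-06), both higher in replicate 2. The adjusted p of Snord17 and Snord15b was smaller than double-precision numbers can hold. The median log2 ratio of the 5 was -0.57, beside -0.0052 over all rows tested.

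The ratios went with length in part. Over 105 other rows of 120 to under 150 nt the median log2 ratio was -0.28, and 5 of them lay at or below that of Snord15b. Over 81 other rows of 200 to under 300 nt, the length class of Snord17, it was 0.073. Over the 11 tested rows of that class annotated as snoRNA, Snord17 included, the median was 0.58. Of these, 9 were higher and 2 lower in replicate 2. Over 90 snoRNA rows of 120 to under 150 nt, Snord genes included, it was -0.34, with 30 higher and 60 lower in replicate 2. Relative to the median of the 105 rows, the log2 ratio of Snord15b was -0.75, under 2-fold, and that of Snord118 was 1.05, over 2-fold. This comparison was added after seeing the data, and the part of length in these ratios was not tested further. Rps3 itself had a log2 ratio of 0.28 (0.26 to 0.29), the opposite sign to the Snord15 genes within it. Snx5 had a log2 ratio of -0.04 (-0.08 to 0.01, adjusted p = 0.182), beside the higher Snord17 in replicate 2.

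**Figure D5:**
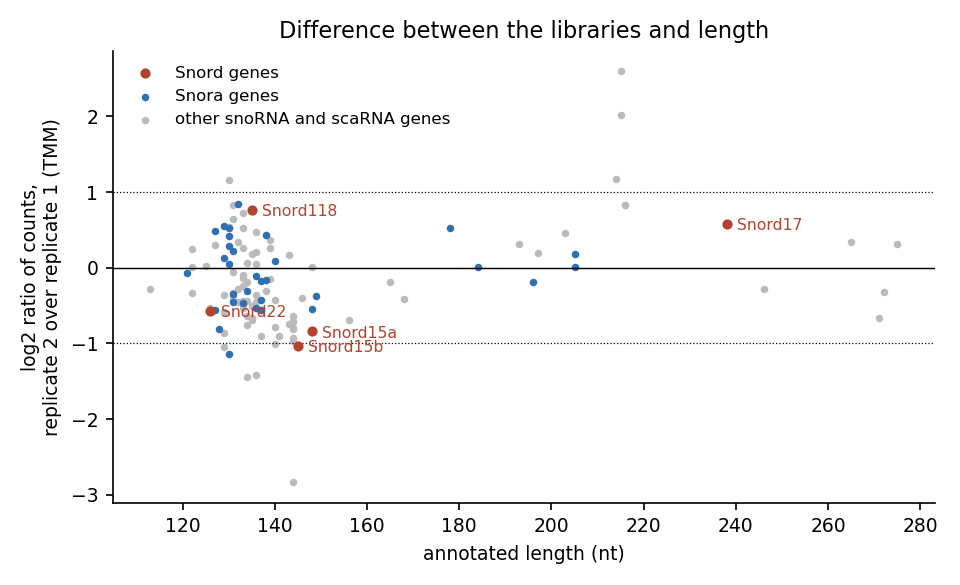
Log2 ratio of TMM-scaled counts, replicate 2 over replicate 1, against annotated length for Snord genes (red, named), Snora genes (blue) and other snoRNA and scaRNA genes (grey) that reached 10 counts in either library. Dotted lines mark 2-fold; Snord15b at -1.03 is the Snord gene beyond them, and Snord17 and Snord118 lie above 0.

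Transcripts of the genes for the proteins of the C/D snoRNA particle are longer than the limit above. Fbl, which encodes the methyltransferase, had 15.4 TPM in replicate 2 and 28.1 TPM in replicate 1. Nop56 had 26.3 TPM in replicate 2 and 52.6 TPM in replicate 1, Nop58 had 24.6 TPM in replicate 2 and 34.2 TPM in replicate 1, and Snu13 had 22.9 TPM in replicate 2 and 40.3 TPM in replicate 1. All 4 were thus lower in replicate 2. The log2 ratios of TMM-scaled counts were -0.59, -0.73, -0.14 and -0.54 for Fbl, Nop56, Nop58 and Snu13. Each had an adjusted p under 0.05, and none was 2-fold in these counts. Their median was -0.57, and 62% of all rows tested passed that cut on p. Of 8 genes for assembly factors of the particle, 7 were lower and 1 was higher in replicate 2 at an adjusted p under 0.05. The share of all rows tested that passed was the same 62%. Again none was 2-fold in TMM-scaled counts, with a median log2 ratio of -0.44. In TPM, which is not TMM-scaled, Nop56 and Nolc1 did reach 2-fold. The assembly factor Nolc1 had 6.74 TPM in replicate 2 and 15.3 TPM in replicate 1 with a log2 ratio of -0.90 (-0.94 to -0.86), and Pih1d1 had one of 0.07 (0.01 to 0.14). Dkc1, the H/ACA pseudouridine synthase, had a log2 ratio of -0.29 (-0.34 to -0.24).

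Markers of the red cell lineage moved between the libraries too. All 6 erythroid markers were at 1 TPM or more in both, with summed levels of 13143 (replicate 2) and 6289 TPM (replicate 1). In TMM-scaled counts all 6 were higher in replicate 2 with an adjusted p under 0.05, a cut that 62% of all rows tested passed. Of the 6, 4 were also higher by 2-fold or more in these counts, beside 6.5% of all rows that differed so in either direction. In TPM not all of the 6 were higher in replicate 2. The alpha globin gene Hba-a1 had 3934 TPM in replicate 2 and 2038 TPM in replicate 1. Alas2, which starts erythroid heme synthesis, had 176 TPM in replicate 2 and 63.3 TPM in replicate 1, a log2 ratio of 1.78 (1.76 to 1.80). None of the lymphoid, neutrophil or connective tissue markers reached 1 TPM in both libraries, and the defining lymphoid gene Cd3e was at 0 TPM. The part of these differences in those of the Snord genes was not tested.

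Names can hide members of this class. RefSeq places Snord94, a U6 guide, at the gene that GENCODE M21 calls Gm22486, 137 nt at chr6:71882557-71882693, which the symbol rule does not take. It had 3433 counts in replicate 2 and 4689 in replicate 1, or 37.8 CPM in replicate 2 and 72.0 CPM in replicate 1, and a log2 ratio of -0.90 (-0.96 to -0.84). RefSeq's Snord73b is the M21 gene Rnu73b of 71 nt, which had 0 counts in both libraries.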

How the data were processed

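Total RNA-seq tables of 2 libraries were used. Genome mm10 and annotation GENCODE M4 were used by the authors, per their deposited readme, and no source used here names the aligner or quantifier. A size range of 300 to 350 is stated per the labels. The authors' deposited tables hold, per the file headers, estimated counts per gene and transcript, TPM, FPKM, effective length, and each transcript's percent of its gene's TPM. Symbols, hosts, coordinates (1-based) and sequences came from GENCODE M21 by identifier without version: 42462 Ensembl rows matched and 884 did not. Numbered tRNA (26248) and spike-in (97) rows stayed in totals and out of tests. Members and gene lists were chosen with earlier results of these data known. Every Snord gene is counted in the text, and those named were the leading ones by mean CPM, list members and their hosts. Other Snord genes of 108 nt or more, and the abundant hosts outside the lists with the Snord genes in them, were named after their values were seen. Values of 1 host and 1 marker gene are not reported here singly, though both count in their groups.

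TMM scaling used edgeR 4.0.16 (R 4.3.3), and ratios used a pseudocount of 0.5 counts. Tests used scipy 1.17.1 and statsmodels 0.14.6 on estimated counts rounded to whole numbers, and the script was tested on simulated data. Motif shares in windows downstream of each gene were not computed, since no genome was used here, and other short genes took their place. Intervals were computed from the counts alone and so cover counting error only. The reads carry no molecular identifiers.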

Additional observations from a re-analysis of the deposited data

How the results depend on the processing

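The 5 Snord genes with 10 or more counts in both libraries were 5 with either library left out (5 to 5) and at every count minimum from 3 to 100. They were 3 at a TPM of 1 or more and 3 where genes overlapping an exon of another gene were left out. The family's share of all counts ran from 0.0956% to 0.0996% with each library left out. It was 0.104% of a total without rRNA and mitochondrial rows, 2.99% of TPM and 2.99% of FPKM. The leading 5 held 99.9965% to 99.9985% of Snord counts with a library left out. The number with an effective length of 0 was 93 to 94, and imprinted genes with 10 counts stayed at 0 to 0. Between the libraries, 1 Snord gene differed; that was 5 with no fold minimum, 3 at 1.5-fold and 0 with no count filter, where the log2 ratio of Snord15b was -0.998. The median log2 ratio of -0.57 was -0.36 in TPM, -0.11 in FPKM and -0.29 relative to rows of 120 to under 150 nt, which was added after seeing the data. With no count filter it was 0.036, since Snord8 then joins and the median lies between Snord22 and Snord17. Spearman's rho with host level was 0.171 with host counts. TPM leaves out genes whose effective length is 0; the causes of the other shifts were not tested. No paired analysis was possible because the libraries form 1 group, and leaving a library out of a ratio between them gives no value. A count of 0 carries the depth limit of 3 counts. No absence is read below 108 nt, where no row had a count, or from there to under 120 nt, where 1.01% of rows did.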

Other observations

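The U3 genes, whose C/D RNA takes part in cutting of the rRNA precursor, carry Rnu3 symbols and so fall outside the Snord rule. All 5 had 10 or more counts in both libraries and together they held 0.719% of all counts in replicate 2 and 0.399% in replicate 1. Rnu3a (214 nt) had 94631 counts in replicate 2 and 30821 in replicate 1, a log2 ratio of 1.17 (1.15 to 1.19). Rnu3b1 had 279043 counts in replicate 2 and 114544 in replicate 1, and Rnu3b3 had 279126 in replicate 2 and 114489 in replicate 1. Rnu3b2 had 268 counts in replicate 2 and 31.5 in replicate 1, and Rnu3b4 had 179 in replicate 2 and 31.5 in replicate 1. The annotated sequences of Rnu3b1 and Rnu3b3 were 100% identical, as were those of Rnu3b2 and Rnu3b4, and the pairs were 99.5% identical to each other. The authors' posterior standard deviation of the Rnu3b1 count was 116855 counts in replicate 2 and 49611 in replicate 1, so the value of each Rnu3b gene is uncertain.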
